A study of Sus scrofa with 12 samples.

Results

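Genes of nuclear factor kappa B (NF-kB) signalling and of the inflammatory response tied to it were examined in the striatum of newborn piglets, with and without deep hypothermic circulatory arrest (DHCA). The genes were taken by name from a list of 36 that covers the NF-kB subunits, their inhibitors, cytokines and their receptors, chemokines and adhesion molecules. Of these, 33 had a row in the authors' deposited comparison table, each with 1 gene identifier there. All 33 identifiers were also in the count table, among 25880 genes counted. The names IL1RN, TNFAIP2 and SELE had no row and are not analysed here. A filter on low counts kept 23 of the 33 genes for testing, beside 14004 genes in all.

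Bulk RNA was sequenced from the striatum, a deep forebrain region, of 12 neonatal piglets. The 6 sham piglets were held under 4% isoflurane, and the labels give no other procedure or waiting time for them. The 6 DHCA piglets had the same anaesthetic, were put on cardiopulmonary bypass through the opened sternum, cooled to 18 °C, held for 30 min without circulation, brought back to 37 °C with bypass running, and left to recover for 6 h. Surgery, bypass, cooling, arrest and recovery therefore cannot be told apart. In bulk tissue, fewer cells of a type and less RNA per cell cannot be told apart either.

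NF-kB is a family of transcription factors that dimerise from the subunits NFKB1, NFKB2, RELA, RELB and REL and are held in the cytoplasm by inhibitor proteins such as NFKBIA. Cytokines of the IL-1 and TNF families, acting through their receptors, lead to the breakdown of these inhibitors, and the freed dimers switch on genes for cytokines, chemokines, endothelial adhesion molecules and the inhibitors themselves. In the brain the pathway is known from microglia, astrocytes and the vessel wall, where ICAM1 and VCAM1 hold circulating leukocytes.

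Library totals ran from 1377809 to 12933536 counts, so that 1 CPM (the usual unit of counts scaled to library size, here after TMM) stood for 1.50 to 13.7 counts. Sham 1 and Sham 5 were the shallowest libraries, with 2515816 and 1377809 counts, and had the lowest shares of counts from mitochondrially encoded genes, 4.01% and 7.30%. The striatum label was checked with 9 markers of spiny projection neurons, all of them detected. Their summed level was 2013 to 4210 CPM in the DHCA group and at least 2505 CPM in 5 sham libraries, but 97.9 CPM in Sham 4. When Sham 1, Sham 4 and Sham 5 were all removed, 25 genes of the list could be tested and 0 passed after adjustment, where 0.00696% of all genes passed. At an unadjusted p under 0.05, 7 of these were higher, against 3.14% of all genes: IL1R1, IL1R2, CCL2, NFKB2, NFKBIA, NFKBIZ and TNFAIP6. With all 12 libraries the set was another: TNFRSF1B, RELB and ICAM1 were in it, NFKBIA was not, and IL1R2 and CCL2 were not tested.

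None of the 23 tested genes passed the edgeR quasi-likelihood test at a Benjamini-Hochberg adjusted p under 0.05 over all genes, a threshold that 0.186% of the 14004 tested genes passed. At an unadjusted p under 0.05, 7 of the 23 were higher in DHCA and 0 were lower, against 3.43% and 4.47% of all tested genes. These 7 were the IL-1 receptor IL1R1, the TNF receptor TNFRSF1B, the subunits NFKB2 and RELB, the nuclear inhibitor protein NFKBIZ, the matrix protein TNFAIP6 and the adhesion molecule ICAM1. The log2 fold change (DHCA minus sham) was positive in 17 of the 23 and negative in 6, where 49.5% of all genes were positive. The median over the 23 was 0.35, beside -0.003 over all tested genes.

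The other tools called 1 or 2 genes of the list. The DESeq2 Wald test called IL1R1 alone, at a background of 1.1%, and limma-voom with sample quality weights called IL1R1 and NFKBIA, at a background of 1.48%. Single libraries moved the summary values. The median was 0.61 without Sham 2 and 0.21 without DHCA 2. Without Sham 2, 11 genes of the list were higher at an unadjusted p under 0.05, where 5% of all genes were. Without DHCA 2 or DHCA 4 there were 4, IL1R1, TNFRSF1B, NFKBIZ and TNFAIP6, where 2.78% and 2.89% of all genes were. For none of the 23 genes did the DHCA and sham groups separate completely, which 0.993% of all tested genes did.

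**Figure D1:**
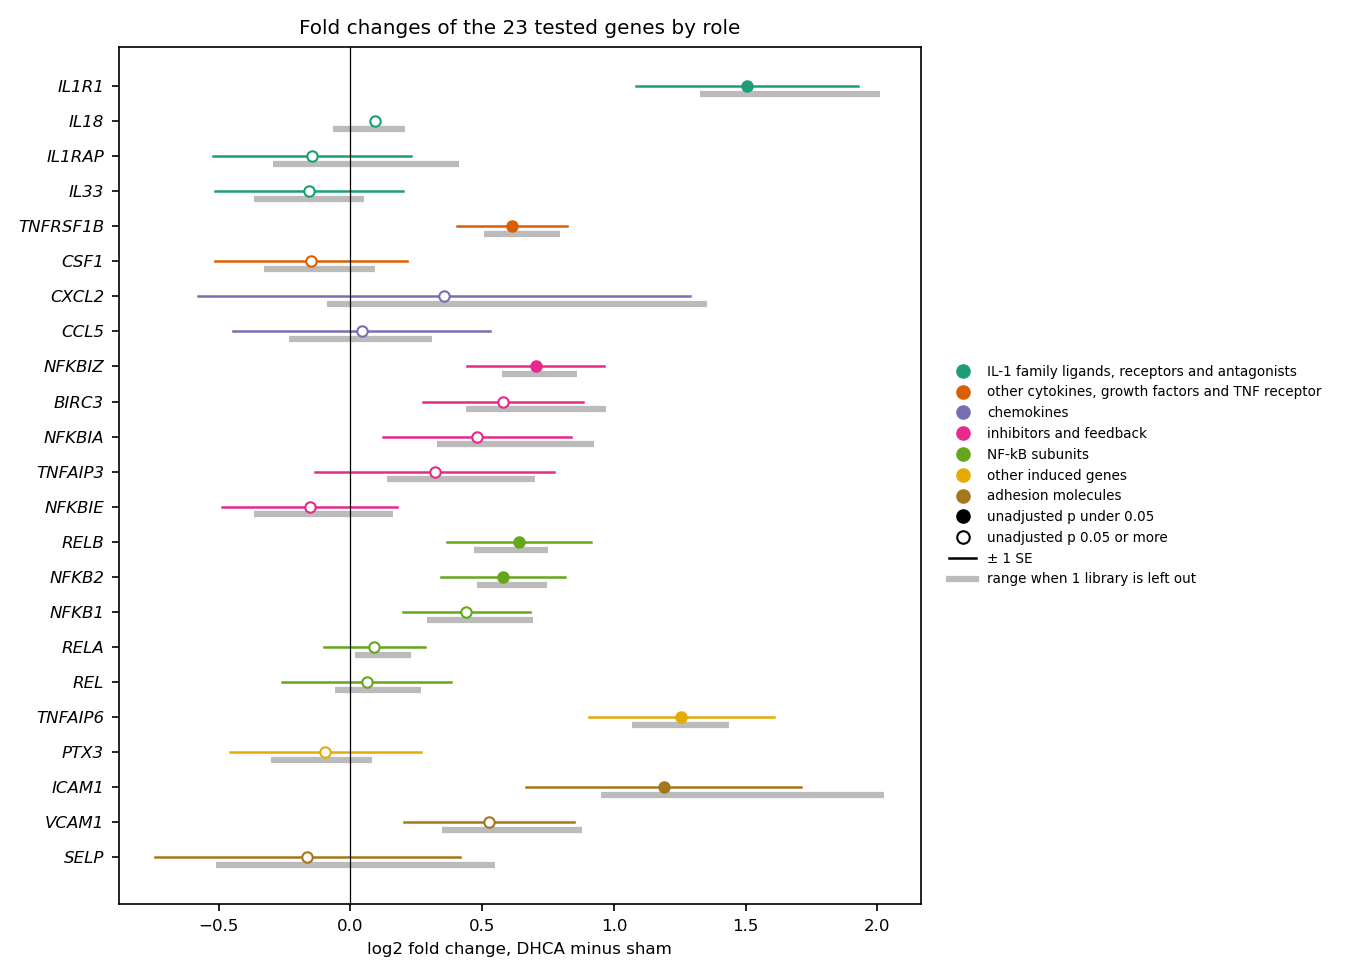
Log2 fold change (DHCA minus sham, horizontal axis) of the 23 tested genes, grouped and coloured by role, with 6 libraries per group. Filled points have an unadjusted p under 0.05 in edgeR, thin lines show ± 1 SE (none could be given for IL18), and grey bars show the range of values when each library in turn was left out. All 7 filled points lie to the right of 0, and the grey bars of 10 genes, among them IL1RAP, CXCL2 and SELP, cross 0.

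Per kilobase of exon, the scale on which genes can be compared, VCAM1 (23.8 CPM per kb in the sham group) and NFKBIA (23.1) stood highest. They were followed by TNFRSF1B (8.09) and BIRC3 (8.0), and within each of these pairs the sham ranges of the 2 genes overlapped over most of their length. CCL4 was the lowest, at 0.078 CPM per kb in sham libraries and 0.0088 in DHCA libraries. Its exons overlap a second identifier of the same name, and reads in the shared sequence are by default not counted, so this level is uncertain. The low end was filled mostly by cytokine and chemokine genes, though CSF1 (4.53) and IL33 (3.97) lay within the range of the subunit genes. IL6, LIF, IL1A, CXCL8, TNF, CSF3, CCL20 and CCL4 all had a sham mean of at most 0.479 CPM per kb, as did the decoy receptor IL1R2. The receptors, subunits, inhibitors and adhesion molecules, apart from IL1R1 and IL1R2, were all above 1 CPM per kb.

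**Figure D2:**
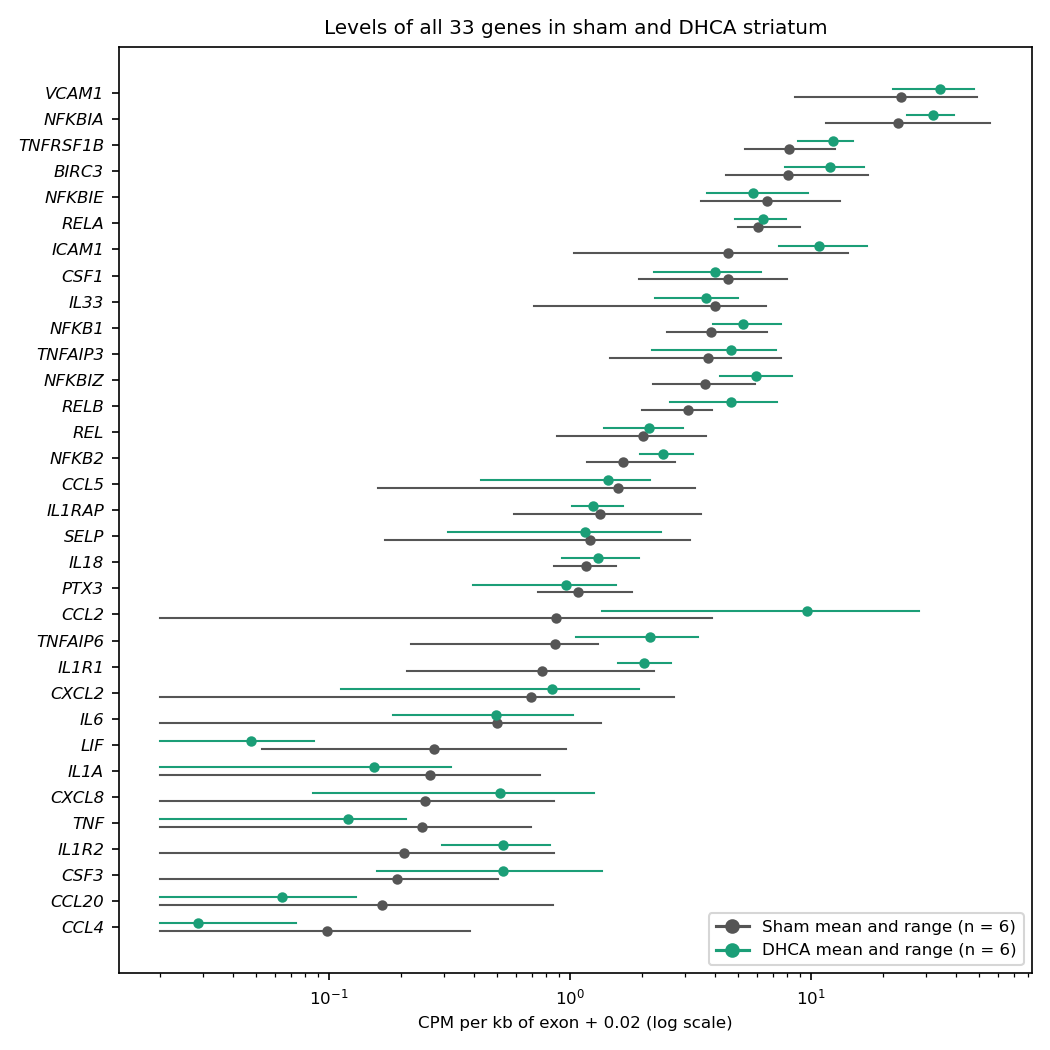
Level of each of the 33 genes in CPM per kb of exon plus 0.02 (log axis), ordered by the sham mean. Points are group means and lines run from the lowest to the highest of the 6 libraries. VCAM1 and NFKBIA stand highest, CCL4 lowest, and CCL2 shows the widest gap between the group means.

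Among the 23 tested genes and with all 12 libraries, the highest fold change was that of the IL-1 receptor, while the tested ligands IL33 and IL18 and the accessory chain were fitted close to 0. IL1R1, the signalling receptor for IL-1 (ENSSSCG00000008162, chromosome 3, 52192909 to 52234138, minus strand, Sscrofa11.1), had a lowest, median and highest level of 0.666, 1.81 and 7.75 CPM in the sham group. In the DHCA group these were 5.43, 6.65 and 9.14 CPM. All 6 DHCA libraries lay above 5 of the sham libraries, the highest of which reached 2.56 CPM, and only Sham 1 fell among the DHCA values. The fold change was 2.84-fold, or 1.51 ± 0.42 on the log2 scale (SE, n = 6 and 6), with an adjusted p of 0.244 and an unadjusted p of 0.00306 in edgeR. The sham value rests on 94 counts over 6 libraries, against 310 in DHCA.

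The call on IL1R1 depended on the sham libraries kept and on the tool. Without Sham 1 the log2 fold change was 2.01 (edgeR adjusted p = 0.0163, where 0.255% of all genes passed). Without both shallow sham libraries it was 1.93 (edgeR adjusted p = 0.0358, where 0.0845% passed). IL1R1 was not called without Sham 1, Sham 4 and Sham 5, where 0.00696% of all genes passed. With all 12 libraries DESeq2 gave 1.50 ± 0.41 (adjusted p = 0.0340) and limma-voom, which gives libraries unequal weights, 1.93 ± 0.26 (adjusted p = 0.00233). Over all 21 alternatives the value stayed positive, and its adjusted p ran from 0.00233 to 0.449.

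IL1R2, which binds IL-1 without signalling, lies next to IL1R1 in the same orientation on chromosome 3, at 52366636 to 52406334. It had too few counts to be tested, 17 over the sham libraries and 75 over the DHCA libraries. Its DHCA libraries held 0.895 to 2.61 CPM, while 5 sham libraries held 0 to 0.366 CPM. Sham 1, with 7 counts and 2.71 CPM, was again the exception and stood above every DHCA library. Under the looser filter of 1 CPM in 6 libraries, edgeR gave a log2 fold change of 1.89 ± 0.63 with an adjusted p of 0.393.

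IL1RAP, the accessory chain that IL1R1 needs to signal, was fitted close to 0. It ranged from 6.59 through a median of 11.05 to 40.7 CPM in sham and from 11.7 through 13.6 to 19.2 CPM in DHCA. The DHCA values fell inside the sham range, whose top was Sham 4 alone, the next sham library being at 15.3 CPM. Its log2 fold change was -0.15 ± 0.38 (edgeR adjusted p = 0.932), and 0.41 without Sham 4.

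Of the IL-1 family ligands, IL33, an alarmin released from damaged cells, averaged 13.4 ± 6.51 CPM in sham and 12.3 ± 3.74 CPM in DHCA (SD, n = 6 each), a log2 fold change of -0.16 ± 0.36. IL18, which is processed by the inflammasome, averaged 1.56 ± 0.40 and 1.75 ± 0.55 CPM, a log2 fold change of 0.093. IL1A, the cell-associated form of IL-1, had 14 counts in sham and 10 in DHCA and was not tested. The edgeR adjusted p was 0.919 for IL33 and 0.999 for IL18, and the groups of both ligands overlapped.

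Among the other cytokines and receptors, TNFRSF1B stood out. It encodes a TNF receptor found mainly on immune, glial and endothelial cells (ENSSSCG00000022208, chromosome 6, 72195390 to 72231147). In sham libraries it ran from 20.3 to 48.0 CPM with a median of 29.8, and in DHCA libraries from 33.7 to 57.2 CPM with a median of 46.6. The 5 sham libraries other than Sham 6 lay below all DHCA libraries, by a narrow margin, since Sham 1 reached 32.6 CPM. This gave a log2 fold change of 0.61 ± 0.21, with an unadjusted p of 0.0111 and an adjusted p of 0.415 in edgeR, and it ran from 0.51 to 0.80 when single libraries were left out.

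The ligands in this group were low or level. CSF1, the growth factor that maintains microglia, had a lowest, median and highest level of 13.2, 26.1 and 54.7 CPM in sham and 15.3, 21.7 and 42.8 CPM in DHCA, and the groups overlapped over nearly their whole ranges. A log2 fold change of -0.15 ± 0.36 was fitted (edgeR adjusted p = 0.928). TNF had 21 counts in sham and 13 in DHCA, IL6 had 40 in each group, and CSF3, the neutrophil growth factor, had 11 and 26. An opposite-strand gene, LTB, shares exon sequence with TNF. The counting had no strand or overlap option, so reads there are by default counted for neither gene, and the few TNF counts are uncertain. None of these 3 genes was tested, and their CPM ranges overlapped.

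LIF, a cytokine of the IL-6 family, went the other way on few counts. It had 21 sham counts, 10 of them in Sham 1, and 5 DHCA counts, with 0 in 3 of the DHCA libraries. The sham libraries held 0.135 to 3.88 CPM and the DHCA libraries 0 to 0.272 CPM. With no filter, the edgeR log2 fold change was -2.60 ± 1.02 with an adjusted p of 0.562.

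The chemokines were low in most libraries. CCL2, which attracts monocytes (ENSSSCG00000017723, chromosome 12, 40798116 to 40800026), failed the filter. Its sham libraries had a lowest, median and highest level of 0, 0.138 and 2.91 CPM, against 1.01, 3.91 and 21.1 CPM in DHCA. Of the 38 counts in the sham group 35 came from Sham 2, and the DHCA group had 325 counts, led by DHCA 4 with 157 and DHCA 2 with 93. All sham libraries but Sham 2 were below every DHCA library. Under the filter of 1 CPM in 6 libraries the edgeR log2 fold change was 3.20 ± 1.00, with an adjusted p of 0.346, and DESeq2 gave 3.40 ± 1.21 with an adjusted p of 0.196.

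CXCL2, a neutrophil chemokine, was the tested gene with the widest spread. It ran from 0 to 22.9 CPM in sham, with a median of 0.909, and from 0.784 to 16.3 CPM in DHCA, with a median of 5.33. Sham 1 and Sham 2 held 22.9 and 9.15 CPM, while the other 4 sham libraries held at most 1.28 CPM. The fitted log2 fold change of 0.35 ± 0.93 (edgeR adjusted p = 0.933) moved to 1.35 without Sham 1, to -0.089 without DHCA 6 and to 2.29 in limma-voom. The gene model counted as CXCL2 spans chromosome 8, 70054756 to 70163415, and holds 2 protein-coding genes of the RefSeq annotation of the same build, so the value is not that of CXCL2 alone.

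In the other chemokines the groups overlapped. CCL5, which attracts T cells, averaged 1.58 ± 1.10 CPM in sham and 1.43 ± 0.66 CPM in DHCA (SD, n = 6 each), a log2 fold change of 0.042 ± 0.49. CXCL8, the main neutrophil chemokine of pigs and people, had 19 and 30 counts. CCL20 had 5 and 3 counts, and CCL4 had 4 and 1. The exons of CCL4 overlap another identifier of the same name and strand, so reads in the shared sequence are by default counted for neither.

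All 5 NF-kB subunit genes had a positive fold change with all libraries, where 49.5% of all tested genes did, and 2 of them were higher at an unadjusted p under 0.05, where 3.43% of all were. NFKB2 (ENSSSCG00000010580, chromosome 14, 113405991 to 113414326) and RELB (ENSSSCG00000038879, chromosome 6, 51444715 to 51480319) encode the partners of the alternative pathway, and both are themselves known NF-kB targets. NFKB2 had a lowest, median and highest level of 4.45, 5.37 and 10.5 CPM in sham and 7.45, 8.82 and 12.4 CPM in DHCA. Only Sham 1 reached the DHCA values, and the next sham library was at 7.16 CPM. Its log2 fold change was 0.58 ± 0.24, with an unadjusted p of 0.0279 and an adjusted p of 0.543 in edgeR. Exons of NFKB2 overlap those of PSD on the other strand. The counting had no strand or overlap option, so reads in the shared sequence are by default counted for neither gene. The effect on the NFKB2 level was not tested.

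RELB had a lowest, median and highest level of 4.41, 6.74 and 8.65 CPM in sham and 5.77, 9.06 and 16.2 CPM in DHCA. DHCA 2 and DHCA 4 stood apart at 16.2 and 14.8 CPM, and the other 4 DHCA libraries overlapped with the sham range or lay just above it. Its log2 fold change was 0.64 ± 0.28, with an unadjusted p of 0.0354 and an adjusted p of 0.580 in edgeR. It fell to 0.47 without DHCA 2.

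RELA, the main activating subunit of the classical pathway and the subunit gene with most counts, had a lowest, median and highest level of 29.6, 32.1 and 53.9 CPM in sham and 28.9, 38.0 and 46.8 CPM in DHCA, and its groups overlapped throughout. A log2 fold change of 0.091 ± 0.19 was fitted (edgeR adjusted p = 0.912). The exons of RELA overlap those of SIPA1 on the other strand. NFKB1, the precursor of RELA's partner, averaged 15.9 ± 5.94 and 21.8 ± 5.33 CPM, a log2 fold change of 0.44 ± 0.24 with 5 sham libraries below all DHCA libraries and a value of 0.69 without Sham 2. REL averaged 12.3 ± 6.92 and 13.0 ± 3.53 CPM, a log2 fold change of 0.062 ± 0.32 that turned negative in 5 of the 12 fits without 1 library.

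The genes grouped as inhibitors and feedback are targets of NF-kB, and some of them, such as NFKBIA, switch it off again. Of 5, 4 had positive fold changes and 1 was higher at an unadjusted p under 0.05, against the same 49.5% and 3.43%. This was NFKBIZ, a nuclear inhibitor-like protein that also helps to induce secondary targets (ENSSSCG00000011951, chromosome 13, 157261419 to 157272689). The sham libraries ran from 9.99 to 26.8 CPM, with a median of 16.1, and the DHCA libraries from 19.0 to 38.1 CPM, with a median of 23.8. Sham 1 and Sham 6 reached into the DHCA range and the other 4 sham libraries lay below it. NFKBIZ had a log2 fold change of 0.70 ± 0.26, with an unadjusted p of 0.0174 and an adjusted p of 0.469 in edgeR, and its unadjusted p was under 0.05 in all 12 fits that left out 1 library.

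BIRC3, a ubiquitin ligase of the TNF receptor complex that protects from cell death, had the most counts of all 33 genes, 5296 in sham and 6535 in DHCA. Its lowest, median and highest levels were 55.4, 83.6 and 216 CPM in sham and 97.9, 145 and 209 CPM in DHCA. Sham 2 alone, at 216 CPM, stood above every DHCA library, and the other 5 sham libraries were below all of them. BIRC3 had a log2 fold change of 0.58 ± 0.30 (edgeR adjusted p = 0.708) with all libraries and 0.97 ± 0.22 (adjusted p = 0.0890) without Sham 2. The span of this gene model holds another RefSeq protein-coding gene, LOC100622859.

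NFKBIA, the main cytoplasmic inhibitor, averaged 43.3 ± 32.7 CPM in sham and 60.3 ± 8.75 CPM in DHCA, a log2 fold change of 0.48 ± 0.36 (edgeR adjusted p = 0.795). Sham 1 held 104 CPM and Sham 2 held 56.4 CPM, whereas the other 4 sham libraries held at most 31.5 CPM, below the lowest DHCA library at 47.2 CPM. Limma-voom with sample quality weights gave 0.93 ± 0.19 with an adjusted p of 0.0237, and edgeR without Sham 1 gave 0.92 with an adjusted p of 0.193. TNFAIP3, a deubiquitinase also called A20, was also highest in these 2 sham libraries, which held 35.3 and 35.6 CPM, above every DHCA library. The other sham libraries held at most 10.7 CPM, above DHCA 1 at 10.3 CPM and below the other DHCA libraries at 17.1 CPM or more. Its log2 fold change was 0.32 ± 0.45 in edgeR and 0.83 in limma-voom. NFKBIE, a further cytoplasmic inhibitor, averaged 16.1 ± 8.49 and 14.1 ± 5.98 CPM, a log2 fold change of -0.15 ± 0.33.

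TNFAIP6, also known as TSG-6, is a secreted protein that binds hyaluronan and limits leukocyte entry (ENSSSCG00000023716, chromosome 15, 861896 to 881760). Its lowest, median and highest levels were 0.388, 1.80 and 2.50 CPM in sham and 2.01, 3.73 and 6.57 CPM in DHCA. All sham libraries except Sham 2 lay below all DHCA libraries, though Sham 5 at 2.00 CPM and DHCA 5 at 2.01 CPM all but met. The fold change was 2.39-fold, or 1.26 ± 0.35 on the log2 scale, with an unadjusted p of 0.00310 and an adjusted p of 0.244 in edgeR. It held an unadjusted p under 0.05 in all 12 fits that left out 1 library, with values from 1.07 to 1.44.

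PTX3, a secreted pattern-recognition protein, gave no such difference. Its lowest, median and highest levels were 2.33, 3.13 and 5.82 CPM in sham and 1.22, 3.53 and 5.00 CPM in DHCA. The groups overlapped throughout, and the log2 fold change was -0.096 ± 0.36 (edgeR adjusted p = 0.957). Its gene model lies within the span of another RefSeq protein-coding gene, VEPH1.

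Of the adhesion molecules, ICAM1, the endothelial and glial ligand of leukocyte integrins (ENSSSCG00000013655, chromosome 2, 69097009 to 69108205), had the highest fold change. Sham libraries ran from 3.13 to 43.3 CPM, with a median of 7.87, and DHCA libraries from 22.5 to 52.2 CPM, with a median of 30.4. The 5 sham libraries other than Sham 2 reached at most 16.2 CPM and lay below every DHCA library, whereas Sham 2 stood above 5 of the 6. The log2 fold change was 1.19 ± 0.52, with an unadjusted p of 0.0389 and an adjusted p of 0.590 in edgeR. Without Sham 2 it was 2.03 ± 0.39 with an adjusted p of 0.0497, where 0.361% of all genes passed, and it was 0.59 once Sham 1, Sham 4 and Sham 5 were removed.

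VCAM1, which binds integrin ITGA4 on lymphocytes and monocytes, had a lowest, median and highest level of 21.3, 53.6 and 122 CPM in sham and 54.3, 86.8 and 119 CPM in DHCA. Sham 2 was again the highest library of all 12. The log2 fold change was 0.53 ± 0.32 (edgeR adjusted p = 0.762) and 0.88 ± 0.27 (adjusted p = 0.228) without Sham 2. SELP, the selectin of activated platelets and endothelium, averaged 3.21 ± 2.77 and 3.04 ± 1.89 CPM, with Sham 2 highest at 8.41 CPM. Its log2 fold change was -0.16 ± 0.58, and 0.55 ± 0.55 without Sham 2.

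**Figure D3:**
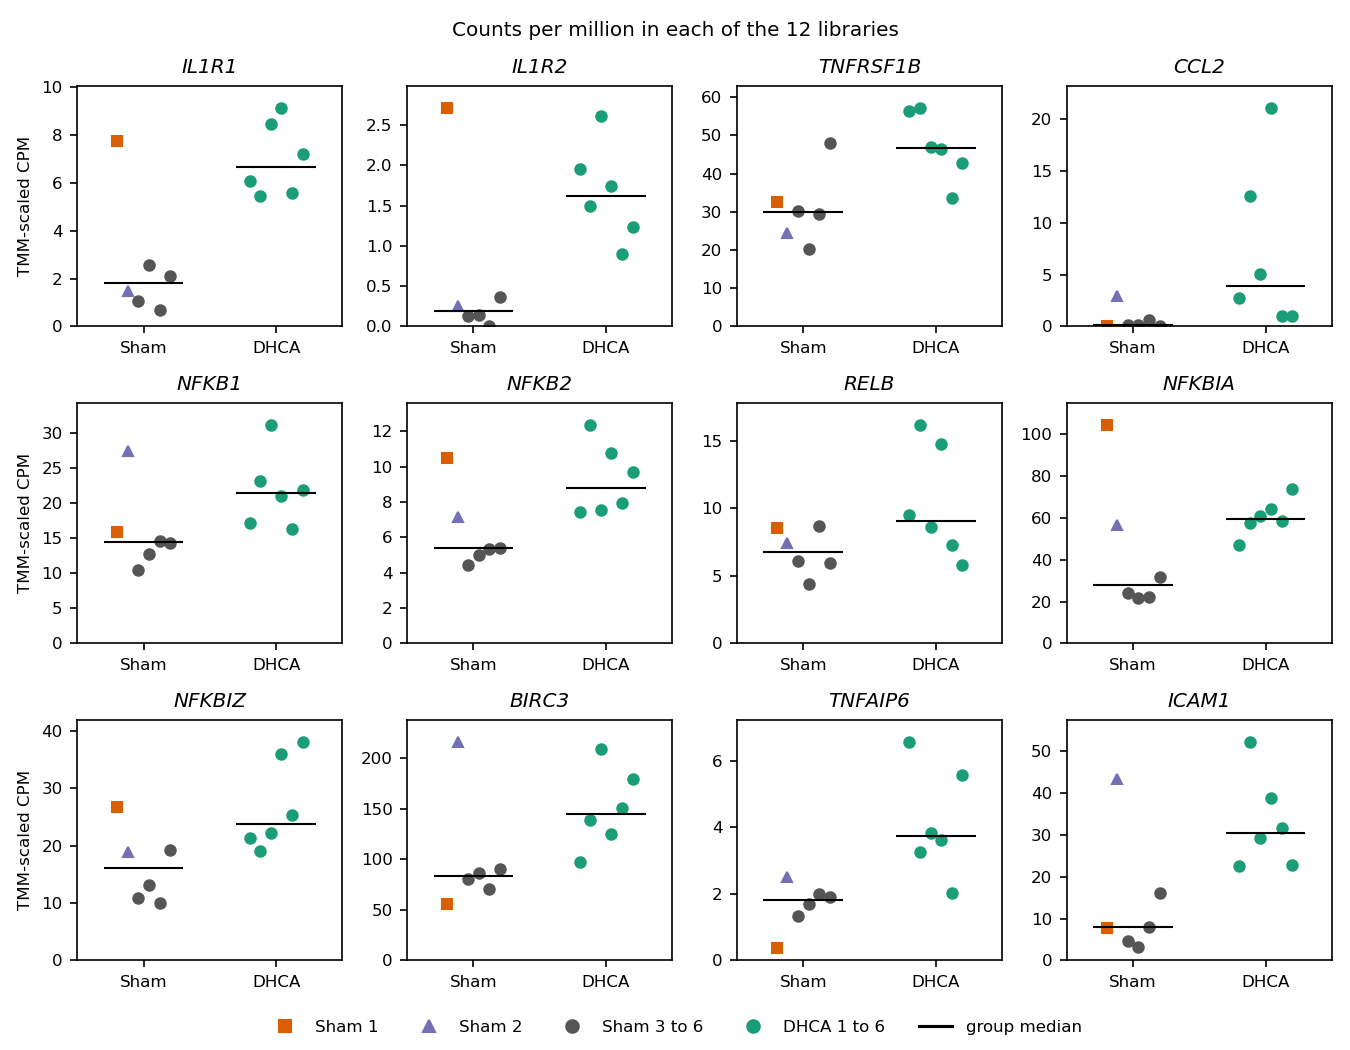
TMM-scaled CPM (vertical axis, from 0, a scale of its own in each panel) of 12 genes in each of the 6 sham and 6 DHCA libraries, with the group median as a line. IL1R2 and CCL2 were not tested for low counts. In every panel but RELB, 4 or 5 sham libraries lie below all DHCA libraries. In these panels Sham 1 (square), Sham 2 (triangle) or, for TNFRSF1B and NFKBIZ, Sham 6 lies among or above the DHCA libraries. The panels hold the 7 genes with an unadjusted p under 0.05 in edgeR and BIRC3. NFKB1, NFKBIA, CCL2 and IL1R2 were added after their values were seen, so the shared pattern partly reflects the choice. IL1RAP, also with 4, is not shown, and the other genes not shown had fewer.

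In many of these genes a single sham library accounted for the overlap between the groups, a pattern that was noticed in the values and is given as a description. At least 5 of the 6 sham libraries lay below all 6 DHCA libraries for 7 of the 23 tested genes, or 30.4%, against 2.41% of all tested genes. These were IL1R1, TNFRSF1B, NFKB1, NFKB2, BIRC3, TNFAIP6 and ICAM1. The exception was Sham 2 for NFKB1, BIRC3, TNFAIP6 and ICAM1, Sham 1 for IL1R1 and NFKB2, and Sham 6 for TNFRSF1B. Sham 2 was also the most frequent exception among the 243 genes of the whole table with exactly 5 sham libraries below all DHCA libraries, at 35.8%, with Sham 1 at 23.9%.

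Either Sham 1 or Sham 2 was the highest sham library for 18 of the 23 tested genes, where 56.7% of all genes had 1 of these at the top. Taken apart, Sham 1 was highest for 39.1% of the 23, near its 32.0% of all tested genes. Sham 2 was highest for 39.1% of the 23, against 24.7% of all. Sham 1 was also the lowest sham library for 35.1% of all tested genes. Over the 23 genes, Sham 2 stood a median of 0.49 log2 units above the other sham libraries, and Sham 1 0.28, while over all tested genes both medians were near 0, at -0.04 and -0.02. The genes for which each stood above the DHCA group differed in part. Sham 1 exceeded every DHCA library for CXCL2, NFKBIA, NFKBIE, REL, TNFAIP3, CSF1 and PTX3, and Sham 2 did so for REL, TNFAIP3, BIRC3, VCAM1, SELP and IL33. REL and TNFAIP3 were the 2 genes shared. How often each library exceeded every DHCA library over all tested genes was not worked out, so these lists cannot be read as a trait of these genes.

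The DHCA libraries also differed among themselves. DHCA 2 and DHCA 4 were the highest pair for NFKBIE, NFKB2, RELB, ICAM1 and CSF1, or 21.7% of the tested genes, against 12.7% of all tested genes. The same pair led the untested genes CCL2, CSF3 and TNF. DHCA 6 instead was highest for CXCL2, NFKBIA, NFKBIZ, REL, SELP and IL33, or 26.1% of the tested genes, against 17.1% of all tested genes.

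**Figure D4:**
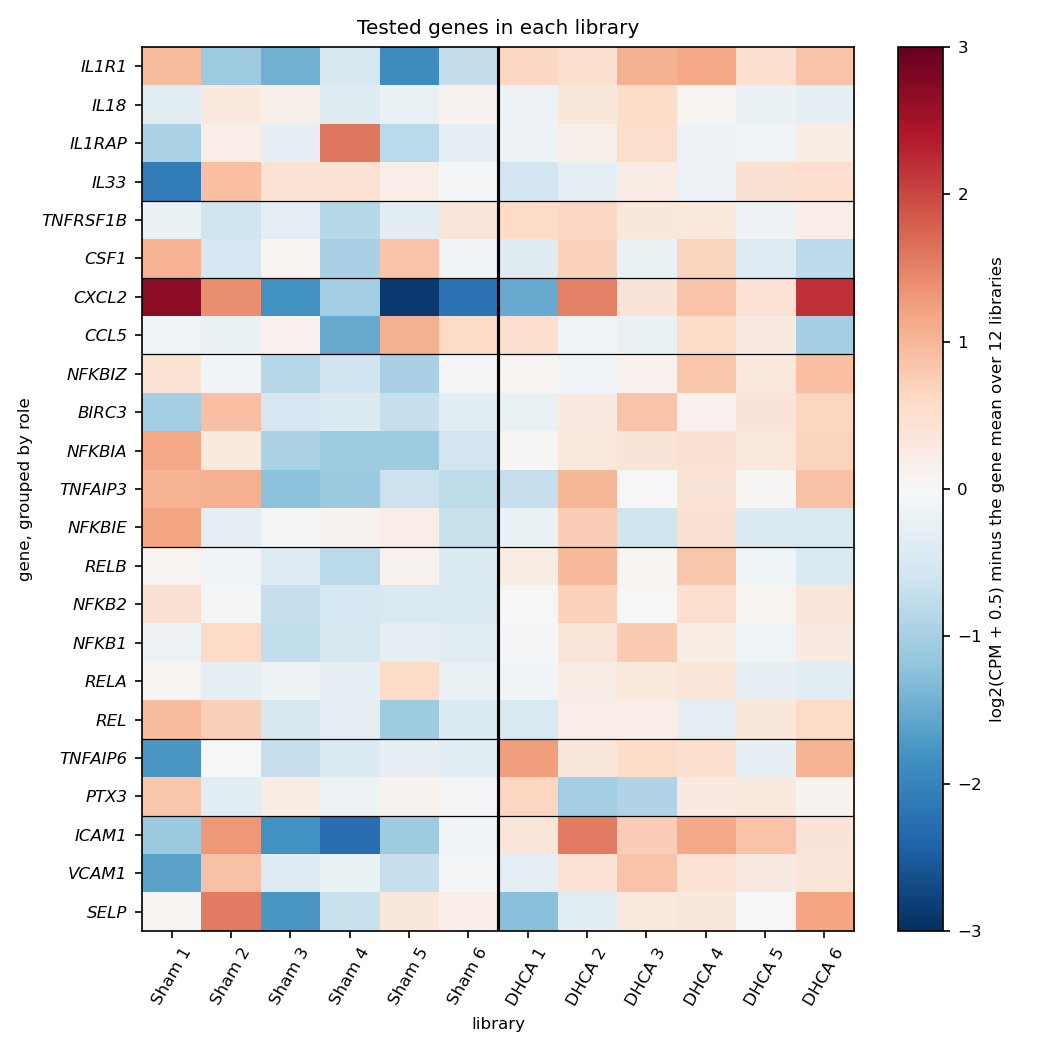
Log2(CPM + 0.5) of each tested gene in each of the 12 libraries, minus that gene's mean over the libraries, with genes grouped by role and red for values above the mean. Sham 3 to Sham 6 are mostly below the mean, Sham 1 and Sham 2 hold red cells that differ between genes, and DHCA libraries are mostly above the mean for IL1R1, NFKBIA, NFKBIZ, TNFAIP6 and ICAM1.

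A list of 64 further genes of the pathway, namely upstream kinases, adaptors, other receptors and the integrins that bind the adhesion molecules, was read in the same way. Of these 57 had an identifier and 48 were tested. None passed after adjustment in edgeR. Of the 48, 9 had an unadjusted p under 0.05 and were higher and 2 were lower, where 3.43% and 4.47% of all tested genes were, and the median log2 fold change was 0.067. The genes with the smallest p included components of both receptor pathways. TNFRSF1A, the death-domain receptor for TNF, had a log2 fold change of 0.69 ± 0.22 (adjusted p = 0.354). MYD88, the adaptor that IL1R1 and Toll-like receptors share, had 0.96 ± 0.32 (adjusted p = 0.375), and IRAK2, a kinase recruited by it, had 0.77 ± 0.25 (adjusted p = 0.369).

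IRAK2 was the 1 gene of the 48 whose groups did not overlap, which 0.993% of all tested genes did, at 7.39 to 26.4 CPM in sham and 27.0 to 41.2 CPM in DHCA. MAP3K8, a kinase bound to the NFKB1 precursor, had 0.82 ± 0.28 (edgeR adjusted p = 0.397) and N4BP1, a brake on NF-kB signalling, 0.46 ± 0.16 (adjusted p = 0.425). ITGA4, the integrin chain that binds VCAM1, was lower, with -1.22 ± 0.42 (adjusted p = 0.419) on low levels of 1.32 to 5.54 CPM in sham and 0.679 to 1.65 CPM in DHCA.

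Markers of blood and vessel cells were summed in each library beside these genes, and in no list did a marker pass after adjustment. The 7 neutrophil markers with an identifier summed to 2.98 to 9.31 CPM in sham and 5.15 to 11.2 CPM in DHCA, and only CSF3R had enough counts to be tested. The 5 monocyte markers, most of whose sum is VCAN, summed to 143 to 495 CPM and 273 to 533 CPM. Of these CD14, a co-receptor of Toll-like receptors, had a log2 fold change of 1.08 (unadjusted p = 0.00897, adjusted p = 0.384 in edgeR). VCAN had 0.13 and CD163 0.62, with adjusted p of 0.919 and 0.762 in edgeR. Of the untested pair, LYZ held 0 to 0.749 CPM in sham and 0.815 to 1.90 CPM in DHCA, and CCR2 held 0 to 1.94 CPM and 0 to 0.618 CPM. The 4 red cell markers with an identifier had a sum of 37.2 to 241 CPM (median 114) in sham and 26.9 to 67.2 CPM (median 39.5) in DHCA. The haemoglobin gene HBB was lower, with a log2 fold change of -1.64 (unadjusted p = 0.000802, adjusted p = 0.140 in edgeR), as was ALAS2 of haem synthesis, with -1.13 (unadjusted p = 0.0454, adjusted p = 0.618).

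The 9 microglia markers found summed to 178 to 357 CPM in sham and 172 to 302 CPM in DHCA, and AIF1, CX3CR1 and TREM2 were lower at an unadjusted p under 0.05. The 9 endothelial markers found summed to 275 to 515 CPM and 292 to 362 CPM. With an unadjusted p under 0.05, CDH5 was higher and TEK, TIE1, VWF and ESAM were lower, and EGFL7 had 0 counts in all libraries. Sham 2, the library with the highest ICAM1, VCAM1 and SELP of its group, had the lowest endothelial sum of all sham libraries, 275 CPM. Its monocyte sum was the highest of the sham group, 495 CPM, of which VCAN alone made up 485 CPM, while its CD14 was 7.07 CPM in a sham range of 3.41 to 19.0 CPM. Sham 1 had the highest endothelial, microglia and neutrophil sums of the sham group, 515, 357 and 9.31 CPM. Its monocyte and red cell sums were the lowest of that group, 143 and 37.2 CPM. The part of any of these cell types in the values of the NF-kB genes was not tested.

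For the 23 tested genes, the unadjusted p in the authors' deposited table was smaller than the one in edgeR for 19 and larger for 4, namely IL1RAP, NFKBIE, SELP and IL33. In the authors' deposited table, adjusted p was under 0.05 for CCL2 (log2 fold change 4.14, adjusted p = 0.000831), ICAM1 (1.62, adjusted p = 0.00934) and TNFAIP6 (1.28, adjusted p = 0.0364), where 1.29% of its genes with an adjusted p passed. For IL1R1 the authors' deposited table had 1.61 with an adjusted p of 0.0885. Of the 23 genes tested here, 21 had the same sign in the authors' deposited table, and IL1RAP and SELP did not. That table also holds values for 86 genes with 0 counts in all 12 libraries, and the labels do not say which libraries entered it.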

How the data were processed

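Striatal RNA of 6 sham and 6 DHCA piglets was analysed, and the design text gives separate piglets, so each p reflects differences between animals. The count table was deposited as raw counts per Ensembl gene with exon lengths. It was made with featureCounts 1.5.1 on Sscrofa11.1 with no strand or overlap option, per the file headers. The aligner was not given in the sources used here. Of 18 library columns 12 matched the samples by number, and 6 were not used. The authors' deposited table holds a mean normalized signal, log2 fold changes with standard errors, its test statistic (a score), and p-values, per the file headers. The submitters' processing notes name featureCounts and DESeq2. The sign of the log2 values in the authors' deposited table was read as DHCA minus sham, from a correlation of 0.967 with the values here across 14004 genes, which are not independent replicates. The test statistic in the authors' deposited table has the opposite sign to its fold change in all 21223 rows, so the direction rests on that correlation.

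In R 4.3.3, counts were filtered with edgeR 4.0.16 (filterByExpr), scaled by TMM and tested with the quasi-likelihood F test (robust) on group alone, with Benjamini-Hochberg adjustment over all tested genes and a threshold of 0.05. SE was derived from the F statistic. Alternatives were DESeq2 size factors and upper-quartile factors, the DESeq2 1.42.0 Wald test, limma 3.58.1 voom with sample quality weights, other filters, a replicate block and left-out libraries. The steps were tested on simulated data. Any 2 libraries of a group differed by a chi-square of at least 8.50 per degree of freedom, so none looked deposited more than once.

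The genes, lists and tests were chosen with earlier results of these data known. By rule, full values are given for tested genes with an unadjusted p under 0.05, and for the gene with most counts among the others of each role. For the pathway list, the 6 genes with the smallest p are named. NFKBIA, TNFAIP3, NFKB1, CCL2, IL1R2 and LIF, and the marker genes, are described beyond the rule, after their values were seen.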

Additional observations from a re-analysis of the deposited data

Results flagged for a closer look

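In 8 of the 46 groups of 6 libraries (23 genes in sham and in DHCA), 17.4%, the highest library stood so far from the others that its gap was over 0.625 of the group's range, Dixon's 95% limit. For normally distributed values, chance gives this in about 1 in 20 groups. The values here are CPM without a log, and the groups share libraries. The share over all tested genes was not worked out, so the number cannot be read as a trait of these genes. All 8 were sham libraries. Sham 2 stood apart with 216 CPM of BIRC3, 43.3 CPM of ICAM1, 27.5 CPM of NFKB1 and 8.41 CPM of SELP, the next sham libraries being at 90.7, 16.2, 15.9 and 3.33 CPM. Sham 1 stood apart with 7.75 CPM of IL1R1 and 32.6 CPM of NFKBIE, the next being at 2.56 and 16 CPM. Sham 4 held 40.7 CPM of IL1RAP, above 15.3 CPM, and Sham 5 held 53.9 CPM of RELA, above 38.4 CPM.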

How the results depend on the processing

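The number of genes called over the whole table was 26, and it was 179 with the DESeq2 Wald test, 207 with limma-voom and quality weights, 12 without Sham 1 and Sham 5, 1 without Sham 1, Sham 4 and Sham 5, and 9 to 51 when 1 library was left out. Of the listed genes, 0 were called in edgeR, 1 with DESeq2, 2 with limma-voom, 1 without Sham 1 and Sham 5, and 0 to 1 when 1 library was left out. The number at an unadjusted p under 0.05 was 7 in edgeR, where 7.9% of all genes were in either direction. With limma-voom it was 12, where 12.8% of all genes were. When 1 library was left out it was 4 to 11, where 6.45% to 12.5% of all genes were, and the median ran from 0.21 to 0.61 in those fits. Apart from the fewer samples, the cause of these moves was not tested.

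With the sample number as a replicate block, 8 genes of the whole table and 0 of the listed genes were called. In this edgeR fit 8 listed genes had an unadjusted p under 0.05, where 5.74% of all tested genes did. Same-numbered libraries deviated together in numbers 1 and 6 (correlations of 0.34 and 0.30) and apart in the other 4 (-0.39 to -0.27). These mixed values do not show a pairing by number, and they cannot exclude that same-numbered animals were handled together. Under the block the log2 fold change turned to 0.17 for IL1RAP and 0.15 for SELP.

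Of 483 fold changes recomputed for the 23 genes under 21 alternatives, 443 kept their sign and 40, in 10 genes that were all near 0 against their spread, did not. Limma-voom gave 0.093 for IL1RAP, -0.030 for CCL5, 0.36 for NFKBIE, 0.042 for CSF1, 0.15 for PTX3 and -0.15 for IL18. Without Sham 1 and Sham 5 the values were 0.24 for NFKBIE, 0.39 for CSF1 and 0.11 for PTX3. Without Sham 1, Sham 4 and Sham 5 they were 0.18 for IL1RAP, -0.13 for CCL5, 0.36 for NFKBIE, 0.22 for CSF1, 0.078 for PTX3 and -0.13 for IL18. When 1 library was left out, the ranges were -0.29 to 0.41 for IL1RAP, -0.089 to 1.35 for CXCL2, -0.23 to 0.31 for CCL5, -0.37 to 0.16 for NFKBIE, -0.058 to 0.27 for REL, -0.51 to 0.55 for SELP, -0.33 to 0.095 for CSF1, -0.30 to 0.081 for PTX3, -0.065 to 0.21 for IL18 and -0.36 to 0.052 for IL33. The cause of these reversals was not tested.

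The fold changes of IL1R1, TNFAIP6, ICAM1, NFKBIZ, RELB, TNFRSF1B and NFKB2 stayed positive under all 21 alternatives. Those of NFKBIA, NFKB1, RELA, TNFAIP3, BIRC3 and VCAM1 did so too, RELA from a log2 fold change of only 0.091. The alternatives share most of their libraries, so a kept sign is no independent support. Depth limits the 10 untested genes most: in Sham 5, 1 count is 0.666 CPM, so that their levels there rest on 0 to 2 counts.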
